A study of Mus musculus with 4 samples.

Results

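Promoter sites of RUNX1 that were called in both of 2 ChIP-seq libraries numbered 8893, which was 36.3% of the 24530 sites found on chromosomes 1 to 19. They were chosen by measured values and by position: a peak summit had to be called in both lists, and the centre of the site had to lie within 1500 bp of an annotated transcription start. The number of sites, their nearness to a start and the fact of a call in both lists are therefore descriptions and carry no test. The cells were floating hematopoietic progenitors, derived in culture from mouse embryonic stem cells (ESCs) through intermediate stages. The methods give 2 days of differentiation, while a figure legend of the paper names a later day. All of the cells carried a Tet-on transgene for dominant-negative FOS (dnFOS). This peptide pairs with JUN-related proteins and keeps them off chromatin when Doxycycline (DOX) is given. One library was labelled +DOX and the other -DOX, so the untreated cells held the silent transgene too. DSG and then formaldehyde fixed the chromatin, which was enriched with an antibody against RUNX1.

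The records of the treatment conflict: where the sample labels say +DOX, the run name inside the peak list says untreated, and the other way about. The libraries are therefore named by their sample labels only, and every direction between them turns round if they are exchanged. Where a pair of values is given for a site, the library labelled -DOX comes first. With 1 library per condition there was no spread between replicates to set a difference against, so no test between conditions was made. The 95% Wilson intervals given with shares cover counting error over sites or genes only.

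RUNX1 is the DNA-binding partner of CBFB, and it is required for blood cells to form from hemogenic endothelium. Its classical binding sequence is a short stretch that contains TGTGGTT, often found in enhancers beside ETS and GATA sequences. Many promoters of widely used genes are of another make: they are CpG islands, stretches rich in G, C and the CG dinucleotide, with GC boxes (bound by SP proteins), GABP-type ETS sequences and NRF1 sequences near the start. A peak at a promoter shows that chromatin was recovered with the antibody there. It is no measure of the gene's expression, and crosslinking with DSG can also hold DNA that RUNX1 reaches through another protein.

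The sequences below were chosen from members that hold a searched string, so they do not show how frequent the strings are. Of all members, 28.9% held none of the 16 strings searched within 100 bp of the summit, and 9.36% held either form of the RUNX string. Only exact matches were counted, so a member without a string can still hold a sequence that differs from it by a base. In Spi1, for example, TGTGGT followed by A or G was not counted. Each sequence below is the plus strand of mm10 (sequence from RefSeq) and covers 100 bp centred on the summit. It lies outside annotated UTRs and is written in lower case, with the searched strings in capitals. The first set shows members with high peaks in both lists. In Msh6, a mismatch repair gene, the capitals mark the CpG form of the RUNX string, TGCGGTT, on the minus strand. In Mrpl52, a subunit of the mitochondrial ribosome, they mark the RUNX string and the GABP-type ETS string CCGGAAG, both on the minus strand. In Wdr5, a core subunit of the histone H3 lysine 4 methyltransferases, and in Psma6, a proteasome subunit, they mark the GABP-type ETS string, on the minus strand in the first. In Ccnd3, which encodes cyclin D3, they mark the RUNX string, and in Jund, which encodes an AP-1 subunit, the cyclic AMP response element (CRE) TGACGTCA.
Msh6, chr17:87974734-87974833: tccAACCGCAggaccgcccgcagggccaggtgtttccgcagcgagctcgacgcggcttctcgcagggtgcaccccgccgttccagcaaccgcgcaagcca
Mrpl52, chr14:54426797-54426896: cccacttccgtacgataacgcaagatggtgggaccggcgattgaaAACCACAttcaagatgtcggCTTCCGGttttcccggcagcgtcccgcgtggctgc
Wdr5, chr2:27514819-27514918: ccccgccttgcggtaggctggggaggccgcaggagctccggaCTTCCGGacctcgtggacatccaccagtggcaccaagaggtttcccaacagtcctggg
Psma6, chr12:55398645-55398744: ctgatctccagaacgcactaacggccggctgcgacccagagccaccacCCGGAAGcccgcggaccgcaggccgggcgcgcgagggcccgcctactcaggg
Ccnd3, chr17:47595629-47595728: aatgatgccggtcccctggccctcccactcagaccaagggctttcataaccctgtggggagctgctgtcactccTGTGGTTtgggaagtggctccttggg
Jund, chr8:70698705-70698804: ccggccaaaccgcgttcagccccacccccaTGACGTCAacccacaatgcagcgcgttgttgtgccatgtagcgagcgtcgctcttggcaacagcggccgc

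The next set comes from blood genes. In Nfe2, a subunit of the erythroid and megakaryocytic factor NF-E2, the capitals mark a GC box (GGGCGGG) and the PU.1-type ETS string GAGGAAG on the minus strand. In Itga2b, the megakaryocyte integrin CD41 that also marks early blood progenitors, they mark the same ETS string. In Gata2, a regulator of blood stem and progenitor cells, they mark the GATA string AGATAA, and in Spi1, which encodes PU.1, a C/EBP string (TTGCNNAA) on the minus strand.
Nfe2, chr15:103258509-103258608: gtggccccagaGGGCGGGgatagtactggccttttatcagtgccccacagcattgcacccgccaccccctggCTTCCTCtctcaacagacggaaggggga
Itga2b, chr11:102470147-102470246: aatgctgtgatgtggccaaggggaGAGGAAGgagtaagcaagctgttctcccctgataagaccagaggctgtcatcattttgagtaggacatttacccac
Gata2, chr6:88203114-88203213: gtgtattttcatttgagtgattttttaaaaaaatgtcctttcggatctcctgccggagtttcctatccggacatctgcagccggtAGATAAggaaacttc
Spi1, chr2:91082996-91083095: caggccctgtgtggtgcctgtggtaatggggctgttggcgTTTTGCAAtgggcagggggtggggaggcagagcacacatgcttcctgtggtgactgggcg

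The last set holds members whose peaks differed most between the lists. Il12rb1, a receptor chain for interleukin 12, and Gm11471, a processed pseudogene, had far higher peaks in the library labelled +DOX, and the capitals mark the RUNX string in the first, and a TATA box (TATAAA) and the AP-1 string TGACTCA in the second, all on the minus strand. Trim10, an erythroid gene, had the higher peak in the library labelled -DOX, and the capitals mark a GATA string and a CCAAT box (GATTGG), both on the minus strand.
Il12rb1, chr8:70811473-70811572: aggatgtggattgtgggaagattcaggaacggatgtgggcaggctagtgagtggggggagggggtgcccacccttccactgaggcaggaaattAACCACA
Gm11471, chr2:167093621-167093720: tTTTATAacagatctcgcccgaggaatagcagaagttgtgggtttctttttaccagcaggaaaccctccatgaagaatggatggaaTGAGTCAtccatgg
Trim10, chr17:36869410-36869509: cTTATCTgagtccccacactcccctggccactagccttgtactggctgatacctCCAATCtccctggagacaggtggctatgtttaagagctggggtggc

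RUNX1 summits lay close to the transcription start, well inside what the rule allowed. The summit of the stronger peak lay a median of 92 bp from the nearest start (quartiles 33 and 204 bp). Of the members, 52.9% had it within 100 bp and 89.2% within 500 bp, where the rule allowed a centre at up to 1500 bp. It lay upstream of the start in 43.6% and downstream in 55.6%. The plot of distances to the nearest start has its 2 fullest bins on either side of the start, with 1610 members in the first 50 bp downstream and 1364 in the first 50 bp upstream. By annotation the summit fell in a 5′ UTR at 35.02% of members, in an intron at 24.3%, between genes at 20.7%, in a coding exon at 11.5% and in an exon of a non-coding transcript at 7.77%.

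**Figure D1:**
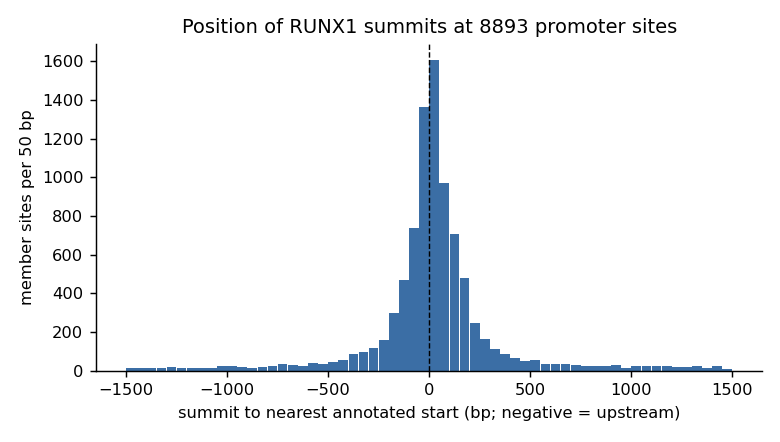
Number of member sites (y axis) in 50-bp bins of the distance from the RUNX1 summit to the nearest annotated start (x axis, bp, negative values upstream). The 2 fullest bins, with 1364 and 1610 members, lie directly on either side of the start, and the counts fall off on both sides.

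Just inside the limit of 1500 bp were sites at Elmo1 (centre at -1499 bp), with a -log10 q of 55.5 and 37.1, at Snx29 (1494 bp), with 51.02 and 94.1, and at Hnrnpul1 (-1494 bp), with 20.4 and 17.8. Just outside were sites at Meis1 (-1502 bp), with 13.7 and 5.95, at Fam171a2 (1507 bp), with 19.5 and 24.2, and at Lsp1 (-1507 bp), with 6.84 and 5.87. The -log10 q is the authors' measure of the significance of a peak over its local background, with larger values for smaller q-values. It is not the height over that background, which the fold gives, and it can be large at a low fold. At the lower edge of the calls, the weakest peak of a member in the library labelled -DOX was at St3gal6 (-log10 q 1.85) and in that labelled +DOX at Mbip (1.57).

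The nearest start belonged to a protein-coding gene at 89.2% of members (7937), to a lincRNA at 2.69%, to an antisense transcript at 2.01% and to a miRNA at 0.776%. A total of 1136 members (12.8%) lay within 1500 bp of starts of 2 protein-coding genes. Head-to-head gene pairs, with starts at most 1000 bp apart, were frequent among them: of 722 such pairs in the annotation, 566 (78.4%, interval 75.2 to 81.2) had a member near at least 1 gene. Genes of such pairs made up 12.99% of the protein-coding genes with a member, 6.91% of all protein-coding genes and 1.36% of those without a promoter site in either list. A shared site cannot be assigned to 1 gene of a pair.

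Of 20780 protein-coding genes, 8470 (40.8%) had a member within 1500 bp of a start. Another 2292 (11.0%) had only a promoter site called in 1 list, and 10018 (48.2%) had no promoter site. The share of 40.8% is the background for every gene list. Among the genes with a member, 7504 had 1 member, 885 had 2, 72 had 3 and 9 had 4 or more. 

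Strength was read as a percentile: the rank of a peak's -log10 q among all peaks of its own list on chromosomes 1 to 19. This needs no read counts, but it depends on how many weak peaks a list holds. The list labelled -DOX held 18052 peaks and the other 21467, so a difference in percentile between them can carry an offset. The percentile is therefore no measure free of depth. It comes from the lists that chose the sites and is given as a description. Rai1, a chromatin-associated regulator, had 6 members at percentiles between 3.89 and 56.9 in the first list and between 17.7 and 61.8 in the second. Gse1 had 5 members, of which one in an intron, with its summit at -1319 bp, had 97.2 and 98.5 and carried a RUNX string. Members covered the whole scale. Their median percentile was 58.9 in the library labelled -DOX (quartiles 35.6 and 78.6) and 63.9 in the other (42.0 and 81.7), with a median -log10 q of 10.01 and 11.7 and a median fold over local background of 5.36 and 5.74. Promoter sites of 1 list were weaker, with median percentiles of 24.9 (-DOX) and 25.4 (+DOX). Of the distal sites in both lists, 12.8% (11.9 to 13.7) had a percentile of at least 90 in both lists, against 8.85% of members (8.28 to 9.46). Of the 1000 highest peaks in the library labelled -DOX, 493 were in members and 504 in distal sites of both lists, whose shares of the whole list were 51.5% and 28.4%. For the library labelled +DOX the corresponding numbers were 485 and 513, with shares of 43.4% and 23.8%.

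Among the strongest members, Nfe2 had a -log10 q of 212 and 200. Lmna, which encodes lamin A/C of the nuclear envelope, had 181 and 210. Tsc22d2, Fam53a and AI467606 had 202, 200 and 197 in the first list, and 241, 240 and 215 in the second. All 5 were above the percentile of 99 in both lists. The summit of Fam53a had the CpG form of the RUNX string within 100 bp on either side, and that of Lmna the classical form.

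The other 5 of the 10 strongest members lay at Gm23935, Gm27940, Gm24270, Gm10800 and Gm10801, and all 5 were under peaks of both H3K27me3 libraries. H3K27me3 is the histone mark set by Polycomb complexes. These libraries carry H3K27me3 as their antibody label, but their protocol names the RUNX1 antibody, and their titles and treatment labels contradict each other, so they were assigned to no condition. Gm10800 and Gm10801 are neighbours on chromosome 2. Gm10800 had a -log10 q of 234 and 229 at a fold of only 5.12 and 5.10, whereas Gm23935 had 408 and 463 at a fold of 27.8 and 26.9. Another 30 members, among them those of Gm10717 and Gm10719 (6 members each) and of Gm11168 (5), lay in the first 3.05 Mb of chromosome 9, all under both H3K27me3 lists, at folds between 1.57 and 3.72. The results without every member under both lists are given with the H3K27me3 values.

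In all, 340 members (3.82%, 3.44 to 4.24) lay under peaks of both H3K27me3 lists and 94.3% under neither, while 9.63% of distal sites in both lists lay under both. The 340 had a median mean percentile of 53.8, a median distance of 170 bp to a start and a CpG island sequence in 69.1%, against 59.5, 89 bp and 82.2% of the members under neither list. A percentile of at least 90 in both RUNX1 lists was reached by 17.1% of the 340 and by 8.52% of the others. The 340 include Gm10800, Gm10801 and the 30 members at the start of chromosome 9. Those 30 had a -log10 q between 14.1 and 162 at folds between 1.57 and 3.72. How much of the share of 17.1% rests on such low-fold sites was not tested. Without all 340 members under both H3K27me3 lists, the share of protein-coding genes with a member was 39.7%. The median distance was then 90 bp and the median percentiles 58.9 and 64.1.

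Across the 8893 members the percentiles of both lists had a Pearson r of 0.708 (0.648 across the distal sites in both lists), which describes these sites and is no test, since both libraries come from the same line and the same rule chose the sites. The summits of both lists lay a median of 61 bp apart, against 33 bp at the distal sites. The median change, +DOX minus -DOX, was 2.2 percentile points (quartiles -6.47 and 15.2). The list of the library labelled +DOX held 21467 peaks and the other 18052. When percentiles were taken among the members only, the median change was -0.169. A percentile at least 20 points higher in the library labelled +DOX was seen at 1674 members (18.8%), against a background of 19.8% of all sites in both lists. One at least 20 points higher in the library labelled -DOX was seen at 887 (9.97%), against a background of 10.9%. Both shares were near the background, so they are no result about promoters.

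**Figure D2:**
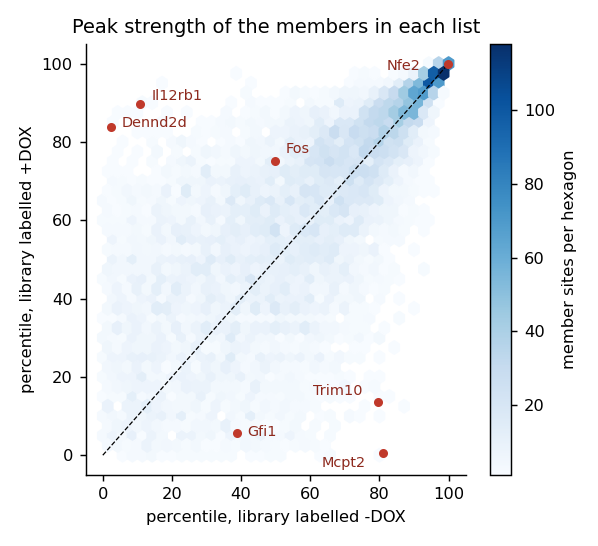
Percentile of each member's peak in the list labelled -DOX (x axis) and the list labelled +DOX (y axis). Colour gives the number of members, red points mark named members and the dashed line marks equal percentiles. The medians are 58.9 and 63.9, and Dennd2d, Il12rb1, Mcpt2 and Trim10 lie far from the line.

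The largest differences were at genes of several kinds, chosen here for their difference and so given as a description. Higher in the library labelled +DOX were Gm11471 (percentiles 3.44 and 88.3), Dennd2d (2.32 and 83.7), Col15a1 (10.04 and 90.1), and Il12rb1 (10.9 and 89.7). Higher in the library labelled -DOX were Mcpt2, a mast cell protease (81.1 and 0.589), Tprgl (87.5 and 11.8), Dpysl5 (79.7 and 9.30), Plscr3 (82.8 and 14.7) and Trim10 (79.7 and 13.6). An AP-1 string lay in the 200 bp at the summits of Gm11471, Col15a1, Il12rb1 and Trim10, and a GATA string at those of Dpysl5 and Trim10. With the libraries exchanged the risers and the fallers change places.

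Of 39 blood transcription factors, 27 (69.2%) had a member, at 34 sites with a median mean percentile of 64.7, against 59.0 for all members. Runx1 itself had 3 members. The site 71 bp downstream of the start of its distal promoter had percentiles of 59.4 and 92.4 and carried a RUNX string. The other 2 lay at another group of starts. One, with a RUNX string and an AP-1 string, had 88.4 and 91.5, and the other 42.2 and 44.6. Cbfb, the partner of RUNX1, had 88.5 and 87.1. Spi1 had 97.6 and 99.3, at a site 638 bp downstream of its nearest annotated start, and which of its starts is used was not tested. Cebpa, a factor of the granulocyte and monocyte lineage, had 71.2 and 58.0. Gata2 had 62.3 and 72.3, Myb 57.6 and 39.2, and Gfi1, a repressor that acts with RUNX1 in the exit from the endothelial fate, 38.7 and 5.75. Ikzf1, Lmo2, Lyl1, Tal1, Meis1 and Runx3 also had members. Runx2, Ets1, Zfpm1, Bcl11a and Mecom had a promoter site in 1 list only. Cebpe, Gata3, Fli1, Erg, Gfi1b, Irf8 and Irf4 had none, but distal sites in both lists had some of them as the gene of the nearest protein-coding start: 4 for Erg, 2 for Cebpe, the closer at 2747 bp, and 1 each for Fli1 and Gata3.

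AP-1 and CNC genes, the family of leucine-zipper factors that JUN and FOS belong to, had a member at 19 of 24 (79.2%), with a median mean percentile of 63.8. Jund was among the strongest members, with a -log10 q of 111 and 91.2. Junb had 36.2 and 38.2. Fos, an immediate early gene, had 8.19 and 15.9, or percentiles of 49.7 and 75.2. Jun had no member, though it had 2 promoter sites in 1 list each and 2 distal sites in both. Atf3 had a promoter site in 1 list, and Batf and Maf had none. The median change over the 20 sites of these genes was 7.98 points, against 2.2 over all members, and 14 of them were higher in the library labelled +DOX, as were 58.9% of all members. Other lists had larger median changes, among them erythroid effectors (10.98 over 10 sites), tRNA synthetases (10.6 over 26 sites) and endothelial genes (8.05 over 10 sites).

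Among signalling genes, cytokine receptors had a member at 15 of 30, against the background of 40.8%. JAK, STAT and SOCS genes, which pass their signal on or limit it, had one at 21 of 25 (84%), and RAS and MAP kinase genes at 27 of 33 (81.8%). The receptors with the strongest sites were Tgfbr1, with percentiles of 88.05 and 94.97, and Ifnar1, with 79.7 and 88.9. Flt3, Csf2rb, Csf3r and Osmr had a promoter site in 1 list. Kit, Csf1r, Csf2rb2, Il7r, Il2ra, Il4ra, Il10ra, Il1r1, Il21r, Tnfrsf1a and Tnfrsf1b had none. For Kit, which encodes the stem cell factor receptor, 2 distal sites in both lists had it as the nearest gene, the closer at 81663 bp, and for Csf1r there was none. Rasa1, a RAS GTPase-activating protein, had 99.3 and 99.4, and Mapk8, which encodes the JUN kinase JNK1, 98.6 and 98.7. Pias3, an inhibitor of STAT3, had 91.02 and 94.9.

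Of 36 myeloid effectors 6 (16.7%) had a member, of 18 megakaryocyte effectors 4 (22.2%) and of 20 erythroid effectors 9 (45%). Itga2b had percentiles of 97.9 and 98.7, Gp1ba, a subunit of the von Willebrand factor receptor, 94.6 and 78.1, and Itgb2, the leukocyte integrin chain CD18, 81.9 and 84.4. At Ank1, which encodes erythroid ankyrin, the stronger of 2 sites had 98.9 and 98.8 and lay under both H3K27me3 lists. The 100 bp at its summit shared stretches of sequence with members at the start of chromosome 9, there on the other strand. Whether reads of one place were aligned to the other was not tested. Fcgr3 also had 2 sites under both H3K27me3 lists. Of the endothelial genes 8 of 25 (32%) had a member, among them Egfl7 with 3 and Nos3.

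Among genes of the general machinery, replication-dependent histone genes had a member at 63 of 67 (94.03%), with a median mean percentile of 75.7. These genes lie in clusters and are near-identical copies, so the values are uncertain where the alignment could split reads between copies. Counting only the gene with the nearest start lowered their share to 64.2%. DNA damage response genes had a member at 34 of 38 (89.5%), at a median mean percentile of 50.8, below the 59.0 of all members. Cyclins, CDKs and CDK inhibitors had one at 32 of 38 (84.2%, median 61.99), DNA replication genes at 35 of 44 (79.5%, median 60.1) and histone methyltransferase and Polycomb genes at 27 of 31 (87.1%, median 72.3). The strongest sites of these lists included Msh6 (percentiles 97.7 and 99.3), Bard1, the partner of BRCA1 (97.3 and 97.5), Ccnd3 (97.04 and 98.3), Orc5, a subunit of the origin recognition complex (99.6 and 98.9), and Wdr5 (99.2 and 99.6). Orc5 carried the GABP-type ETS string, the CpG form of the RUNX string and a CRE in the 200 bp at its summit.

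In gene expression, the spliceosome and SR protein genes had a member at 45 of 58 (77.6%), at a median mean percentile of 72.2, and the BAF chromatin remodelling genes at 19 of 25 (76%), at 74.2. Mediator and RNA polymerase II genes had one at 31 of 39 (79.5%), translation initiation factors at 39 of 52 (75%) and tRNA synthetases at 25 of 37 (67.6%). Cytosolic ribosomal proteins had one at 51 of 79 (64.6%) and mitochondrial ribosomal proteins at 43 of 75 (57.3%). Eif4a1, the RNA helicase of cap-dependent initiation, had percentiles of 97.8 and 99.4, and Mrpl52 had 97.8 and 94.6. Proteasome genes had a member at 28 of 48 (58.3%), at a median of 47.4, with the strongest sites at Psmd7 (99.2 in both) and Psma6 (94.1 and 97.5). Respiratory chain and ATP synthase genes (44 of 90, 48.9%), vacuolar ATPase and cathepsin genes (18 of 33, 54.5%) and Zfp zinc finger genes (186 of 358, 52.0%) were nearer to the background.

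Members lay at 5 of 39 Hox genes, 2 of 23 neural genes, 1 of 17 pluripotency genes (Klf4), 1 of 24 liver and gut genes (Lgr5), 4 of 110 keratin genes, 4 of 1086 olfactory receptor genes and 1 of 325 vomeronasal receptor genes. Of the neural genes, Pax6 had percentiles of 30.4 and 19.4. The 5 Hox sites had a median mean percentile of 31, and 2 of the Hox genes kept a member once those under both H3K27me3 lists were left out. Klf4 had 65.2 and 76.8, Lgr5 74.6 and 81.8 and the keratin gene Krt10 96.7 and 96.6. The start nearest to the site of the receptor gene Vmn1r4 was that of Nt5c3. Markers of the labelled cell type were covered at 7 of 10 for blood progenitors (not Kit, Cd34 and Ptprc), at 0 of 5 for embryonic stem cells, 1 of 7 for myeloid cells, 2 of 4 for erythroid cells, 3 of 6 for endothelial cells and 1 of 4 for neural cells.

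**Figure D3:**
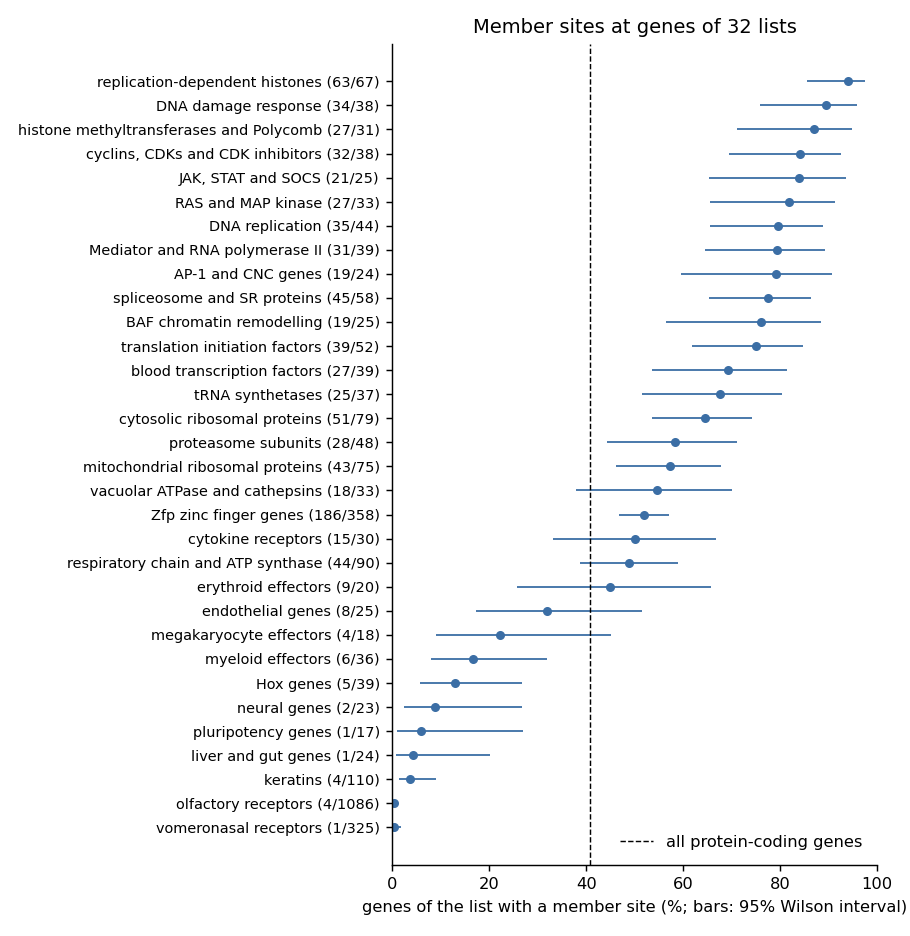
Share of the genes in each of 32 lists that had a member site (x axis, %), with the number of genes in brackets. Bars are 95% Wilson intervals and the dashed line marks the 40.8% of all protein-coding genes. Histone, DNA damage and cell cycle lists lie at the upper end, and olfactory and vomeronasal receptors lie near 0.

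A CpG island sequence, with a GC content over 50% and an observed over expected CpG ratio over 0.6 in 400 bp, was present at 81.8% of members (80.98 to 82.6), 62.1% and 58.9% of promoter sites called in 1 list only (-DOX and +DOX), and 6.08% of distal sites in both lists. The median GC content of the same window was 66.75% at members and 49.25% at the distal sites. Of 10139 gene starts with such a sequence 67.4% had a member, and of 10641 without one 15.4% had. Read within these classes, blood transcription factors had a member at 17 of 23 island genes and at 10 of 16 others. Neural genes had one at 2 of 17 island genes, Hox genes at 4 of 24 and endothelial genes at 2 of 7. RAS and MAP kinase genes had one at 26 of 30. Outside islands, DNA damage response genes had one at 8 of 10, DNA replication genes at 6 of 7, endothelial genes at 6 of 18 and myeloid effectors at 5 of 34. JAK, STAT and SOCS genes had one at 15 of 15 island genes. Some lists of the general machinery lay below the 67.4% of all island starts. Mitochondrial ribosomal proteins had 34 of 62, and respiratory chain and ATP synthase genes 36 of 66. Proteasome genes (24 of 38), cytosolic ribosomal proteins (43 of 66), tRNA synthetases (24 of 34) and Zfp genes (137 of 202) were nearer to the 67.4%. Spliceosome and SR protein genes (41 of 51) were above it. No intervals are given for these shares within islands.

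The 7274 island members had median percentiles of 59.3 and 64.3, and the other 1619 had 56.9 and 61.3. The median distance to a start was 77 bp at island members and 323 bp at the others. The classical RUNX string was found at 2.45% of island members (2.12 to 2.83) and 19.3% of the others (17.5 to 21.3). The GATA string was at 1.77% and 17.7%, the AP-1 string at 1.44% and 5.87% and the PU.1-type ETS string at 8.08% and 14.02%. The GABP-type ETS string went the other way, with 14.8% (14.02 to 15.7) and 5.62% (4.6 to 6.85). At distal sites in both lists without an island the RUNX string was at 27.3% and the GATA string at 25.5%.

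The CpG form of the RUNX string was found at 4.03% of members (3.64 to 4.45), at 1.03% of all gene starts (0.901 to 1.18) and at 0.388% of windows moved 2000 bp up- or downstream of the members. The string written backwards, with the same base composition, was at 1.25% of members. Within islands it was at 3.85% of members, at 1.64% of the starts of genes with a member and at 0.815% (0.495 to 1.34) of the starts of genes without a promoter site. The classical string was at 5.52% of members, against 3.16% of all gene starts and 5.65% of the shifted windows, and 1.21% of members held it backwards. Outside islands it was at 19.3% of members (17.5 to 21.3), 4.39% of the starts of genes with a member (3.5 to 5.49) and 4.79% of those without a promoter site (4.35 to 5.28). Within islands the shares were 2.45%, 1.64% and 1.2%. Either RUNX string was at 9.36% of members (8.77 to 9.98) and at 28.5% of distal sites in both lists. The windows at gene starts are centred on the start and not on a summit.

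The GABP-type ETS string was at 13.1% of members, 9.76% of all gene starts and 0.782% of the shifted windows. Among island starts it was at 1366 of 6829 genes with a member (19.1% to 20.97%) and at 7.83% (6.68 to 9.14) of genes without a promoter site. The GC box was at 36.4% of members and 28.5% of all gene starts. Since it reads the same backwards, it has no reversed control. The CCAAT box was at 7.16% of members and 12.6% of gene starts. The AP-1 string was at 2.25% of members and 2.81% of gene starts, but outside islands it was at 5.87% of members (4.82 to 7.12), 3.78% of the starts of genes with a member and 4.34% of those without a promoter site. Either ETS string was at 21.2% of members. RUNX strings were at 9.46% of members with an ETS string (8.22 to 10.9) and at 9.33% of those without (8.67 to 10.03), with overlapping intervals. None of the 16 strings was found at 28.9% of members.

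The strings changed with the distance to the start. The GABP-type ETS string fell from 21.6% of members with a summit within 50 bp of a start to 12.9%, 8.91%, 6.21% and 4.11% in the classes up to 100, 250, 500 and 1500 bp. The RUNX string rose over the same classes from 2.91% to 3.27%, 4.73%, 8.80% and 16.7%. The share with an island fell from 92.1% to 34.7% over these classes. Within island members alone, the GABP-type string fell from 22.7% (21.2 to 24.3) nearest to the start to 5.78% (3.73 to 8.84) in the outermost class, while the RUNX string was at 2.07% (1.6 to 2.67) and 2.74% (1.45 to 5.12). Outside islands the RUNX string rose from 12.7% (9.01 to 17.5) to 24.1% (20.9 to 27.6), and the GABP-type string was at 8.44% (5.53 to 12.7) and 3.23% (2.1 to 4.94). The median mean percentile was 60.9 nearest to the start and 55.6 in the outermost class.

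Within 200 bp of the summit, the matches of the RUNX strings were the most centred of the 16 strings. For the classical form, 373 matches lay within 50 bp of the summit and 97 over 150 bp from it, a ratio of 3.85, and for the CpG form 224 and 59, a ratio of 3.80. Both bins cover the same length of sequence, so an even spread gives a ratio near 1. The ratio was 2.16 for the CRE, 1.97 for the GABP-type ETS string, 1.78 for the GATA string and 1.75 for the AP-1 string. CCAAT boxes (0.707), TATA boxes (0.619) and the ZNF143 string ACTACAA (0.481) lay more often at the edge than at the summit.

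**Figure D4:**
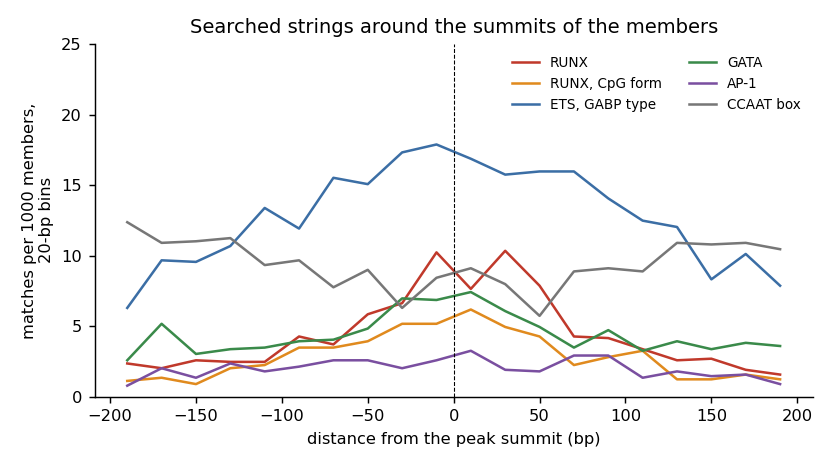
Matches of searched strings per 1000 members (y axis) in 20-bp bins of the distance from the summit (x axis, bp). Both RUNX forms and the GABP-type ETS string are highest near the summit, with inner to outer ratios of 3.85, 3.80 and 1.97, and the CCAAT box is lower there, with 0.707.

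In 5 equal groups by mean percentile, the CpG form rose from 2.14% (1.56 to 2.92) of the weakest members to 8.10% (6.92 to 9.46) of the strongest, and the classical form from 4.33% (3.48 to 5.38) to 8.38% (7.18 to 9.76). The GABP-type ETS string rose from 10.1% (8.75 to 11.5) to 16.4% (14.8 to 18.2). For the AP-1 string the intervals of the end groups overlapped, at 1.63% (1.14 to 2.33) and 2.53% (1.90 to 3.37). Island members with the CpG form had a median mean percentile of 76.9, against 58.9 without it, and island members with the classical form had 74.1, against 59.2. The share with an island was 78.4% in the weakest group and 79.7% in the strongest.

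In 5 equal groups by the change between the libraries, the GATA string fell at each step. It was at 7.08% (5.98 to 8.37) of the group with the lowest change, which was higher in the library labelled -DOX, and then at 5.4%, 4.1%, 3.43% and 3.32% (2.58 to 4.26). Members with it had a median change of -1.05 points and the others 2.4. Outside islands these medians were -2.27 (286 members) and 1.46 (1333 members), and within islands 1.91 (129 members) and 2.6. The AP-1 string ran the other way, from 1.97% (1.42 to 2.72) to 2.87% (2.19 to 3.75), with overlapping intervals. Members with it had a median change of 5.40 points (200 members, with quartiles of -4.47 and 19.1), and those without it 2.11 (quartiles -6.55 and 15.1). The CpG form of the RUNX string was most frequent in the middle group (5.79%) and least frequent in the group with the highest change (2.19%). Members with this form already had high percentiles, with medians of 75.7 and 77.7, while the highest group began at a rise of 19.1 points. Whether the upper end of the scale plays a part here was not tested. All these orders turn round with the libraries exchanged, and none was set against a replicate.

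**Figure D5:**
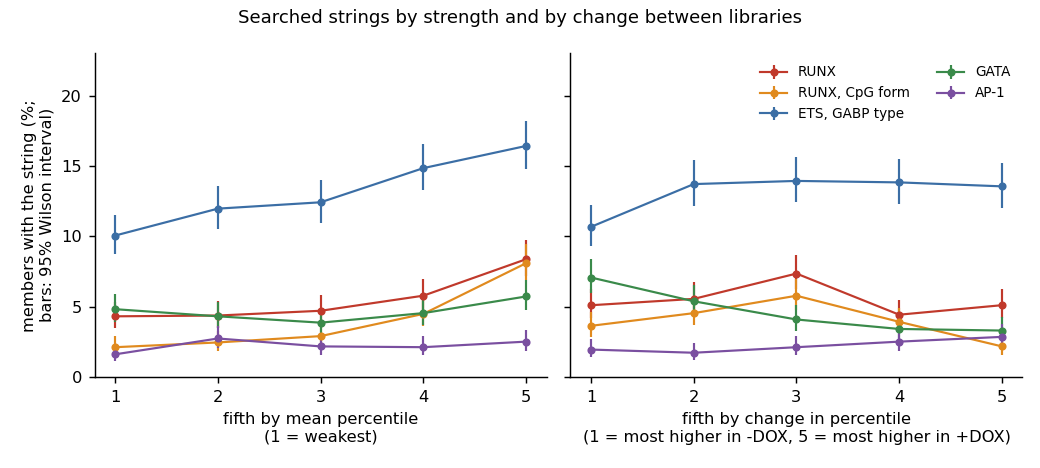
Share of members with a searched string (y axis, %, bars are 95% Wilson intervals) in 5 equal groups by mean percentile (left) and by the change in percentile, +DOX minus -DOX (right). Both RUNX forms and the GABP-type ETS string rise with strength, and the GATA string falls from 7.08% to 3.32% across the groups by change.

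Of the 8470 genes with a member, 21.4% (20.6 to 22.3) were the nearest protein-coding gene of at least 1 distal site in both lists. The share was 22.3% (20.6 to 24.0) for genes with a promoter site in 1 list only and 12.3% (11.6 to 12.9) for genes without a promoter site. The nearest gene is a rule of position, and the gene a distal site acts on was not tested.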

How the data were processed

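RUNX1 ChIP-seq was analysed from 2 libraries, with 2 libraries labelled H3K27me3 beside them. According to the methods and the submitters' processing notes, reads were trimmed with Trimmomatic, aligned to mm10 with Bowtie2 (the notes give version 2.2.9, the methods another), freed of duplicates with Picard, and peaks were called per library with MACS2 (2.1.1 in the notes) at a q-value threshold of 0.05. An input control is not given in the sources used here, and how the H3K27me3 libraries were handled is not described. Per peak, the authors deposited the fold over the local background of its library, a ratio that is already normalized, and the −log10 of the p-value and of the q-value. The deposited offset of the summit from the peak's start is another value, in bp. The methods also name filters (blacklisted regions, repeats, DNase1 sites), which were not checked on these lists. Read counts, and so the depth, are unknown, and no interval here covers it.

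Intervals of 200 bp on either side of each summit were merged over both lists where they touched. The percentile is the mid-rank of −log10 q among the peaks of its list, and a site takes its best peak per list. Starts, genes and annotation came from GENCODE's mouse release M21, and sequence from RefSeq's mm10 assembly, in which 99.9% of annotated start codons read ATG. Genes took the symbols of the annotation, and a gene had a member when any of its starts lay within 1500 bp of the site's centre. Motifs were fixed strings, searched on either strand in 200 bp centred on the summit with the higher percentile. Beside those spelled out in the results they were NRF1 GCATGCGC, YY1 AAGATGGC, the E-box CACGTG and E2F TTCCCGC. Matches of different strings may overlap, as those of the GC box and E2F can. The scripts ran under Python 3.11.15 (numpy 2.4.6, matplotlib 3.10.9) and were tested on simulated data.

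The members, the 32 gene lists and the 16 strings were chosen with earlier results of these data known. Named genes followed a rule: the 10 members with the highest mean percentile, the 5 with the largest rise and the 5 with the largest fall, the 2 strongest genes of each list, the genes with most members, the sites nearest to 1500 bp, the uncovered genes of 3 lists, and a fixed set of blood and AP-1 genes. Some genes that the rule names are not reported here. A few others with a member are named without values and were added after the values were seen. Conditions were taken from the sample labels. Alternatives changed the extension, the distance, the threshold, the list length, the starts, the overlap rule, the chromosomes, the percentile, the motif window and the H3K27me3 threshold; 3 more, added after the data were seen, left out members under both H3K27me3 lists or in soft-masked sequence, or ranked members among themselves.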

Additional observations from a re-analysis of the deposited data

How the results depend on the processing

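No paired analysis was possible because there was 1 library per condition. For a value with no test, an alternative counted as a change where it left the value's 95% counting interval (1.5 times, for a count).

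With a -log10 q of at least 10 in both lists, there were 3787 members, covering 18.8% of protein-coding genes, and with the 5000 highest peaks of each list 2197 and 10.9%. Both settings keep strong peaks by construction: the median percentiles became 81.0 and 83.3 (-DOX and +DOX), and 88.4 and 89.9, the change 0.859 and 1.01 points, and the distance 86 and 83 bp. The GABP-type ETS string rose to 15.6% and 16.4%, the RUNX string to 6.92% and 7.78% and its CpG form to 6.15% and 7.28%. The island share became 83.2% with the first, and 4.55% lay under both H3K27me3 lists with the second. At a -log10 q of at least 5 the values were 33.3% of genes, percentiles of 67.1 and 71.2, a change of 1.56, islands at 82.7%, the CpG form at 4.52% and H3K27me3 at 3.38%.

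With an extension of 100 bp, 36.7% of genes had a member, the percentiles were 60.6 and 65.3 and H3K27me3 3.27%. With a centre within 500 bp, genes were 38.1%, the distance 77 bp, islands 87.5%, the GABP-type string 14.2%, the RUNX string 4.24% and H3K27me3 3.42%. With protein-coding starts only, islands were 85.0%, the RUNX string 4.95% and H3K27me3 3.39%. With X and Y, 39.1% of genes had a member, and without the members under both H3K27me3 lists 39.7%. Stricter H3K27me3 peaks (-log10 q of at least 5) covered 2.89%. Without soft-masked members H3K27me3 was 3.18% and islands 82.9%.

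Windows of 100 and 400 bp gave the GABP-type string at 7.19% and 20.6%, the RUNX string at 3.58% and 7.59% and its CpG form at 2.38% and 5.70%. Ranking by fold gave percentiles of 56.4 and 60.5 and a change of 1.64. The change reversed to -2.20 with the libraries exchanged (percentiles 63.9 and 58.9) and to -0.169 when ranked among the members. The number of lists above the share of all genes was 22 of 32, and between 19 and 22 under the alternatives.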
